A study of Mus musculus with 8 samples.

Results

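Loss of Rem2 was read here as the difference between Rem2 KO and Control neurons that held whether or not the neurons had been depolarised. All 8 libraries of the series entered, 4 labelled Rem2 KO and 4 labelled Control, in 4 pairs that share a replicate number and a KCl state. Transcript abundance was deposited as FPKM, which scales sequenced fragments to transcript length and library size. Transcripts were added up per gene, and the 12736 genes above 0 in all 8 libraries with at least 1 FPKM in 2 were tested. The groups were Rem2 KO without KCl, Rem2 KO with KCl, Control without KCl and Control with KCl, with 2 biological replicates each. The neurons were mouse cortical neurons of embryonic day 16.5, kept 6 days in culture. All of them received 1 µM tetrodotoxin, a sodium channel blocker that silences firing, overnight, and the KCl groups then received 55 mM KCl for 4 h, which depolarises neurons. Every library, Control included, carries the genotype entry Rem2 flx/flx, so the groups were taken from the titles. Which exons were removed, how Cre was delivered and how many animals or cultures stand behind a library are not stated. The p-values of the genotype difference therefore measure only how that difference varied between these 4 pairs of libraries.

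Rem2 belongs to the RGK family of small GTPases, with Gem, Rrad and Rem1. These proteins bind the beta subunits of voltage-gated calcium channels and reduce calcium entry, and Rem2 also binds calmodulin. In neurons the Rem2 gene is itself switched on by depolarisation, and the protein has been linked to synapse formation and dendritic branching. The title of the series ties Rem2 to genes that encode synaptogenic molecules, which are the adhesion and secreted proteins through which neurons build synapses.

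Summed FPKM per library was 435544 to 474624, and 11998 to 12770 genes reached 1 FPKM. Read depth is unknown because the values are FPKM. Replicate number marked a large shared deviation. Log2 values of pair partners correlated at 0.993 to 0.995 over genes, while the replicates of a group correlated at 0.956 to 0.965. Some markers of other cells differed strongly between the numbers. The smooth muscle and pericyte gene Acta2 stood at 79.0 and 66.0 FPKM in Rem2 KO number 2 and 69.4 and 49.8 FPKM in Control number 2, against 6.37 and 5.64 FPKM in Rem2 KO number 1 and 5.62 and 3.67 FPKM in Control number 1. The fit therefore carried a term for each pair.

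Rem2 itself was lower in the Rem2 KO library of each of the 4 pairs. Without KCl its level was 2.13 and 1.70 FPKM in Rem2 KO replicates 1 and 2, against 6.29 and 2.54 FPKM in Control. With KCl it was 11.7 and 12.4 FPKM in Rem2 KO, against 22.5 and 21.4 FPKM in Control. The groups did not overlap in either state, and the Control library number 2 without KCl lay closest to Rem2 KO. The mean log2 difference of FPKM + 1 was -0.81 (SE 0.11), and Rem2 fell past the threshold (limma adjusted p = 0.00796). It missed the threshold when the pair term was left out (limma adjusted p = 1), with a term for replicate number only (0.052), when genes with zeros were let in (0.0834), with no filter on low values (0.285) and with each transcript tested by itself (0.157). KCl raised Rem2 by 2.17 on the log2 scale (limma adjusted p = 2.7e-06), averaged over the genotypes. Since the removed exons are not stated and the values cover the whole gene, how much intact transcript was left in Rem2 KO is not known.

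The other RGK genes did not pass the test. Gem, at 1.73 to 5.6 FPKM in Rem2 KO and 2.25 to 4.78 FPKM in Control, had a mean log2 difference of 0.02 (limma adjusted p = 0.945). Rrad stayed at or below 1.52 FPKM in every library and had a difference of 0.10 (limma adjusted p = 0.702). Rem1 reached at most 0.0738 FPKM and was not tested.

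Over all genes, 164 passed an adjusted p of 0.05 in limma, which is 1.29% of the genes tested. Lower in Rem2 KO were 114 of them (0.895% of tested genes) and higher 50 (0.393%). Each of the 164 moved the same way in all 4 pairs, as did 2646 of all tested genes (20.8%), of which 1485 were lower (11.7%) and 1161 higher (9.12%). In 49 genes (0.385%) the difference was at least 0.32 on the log2 scale in every pair, 39 of them lower (0.306%) and 10 higher (0.0785%), and all 49 passed the test. The changes were small, with log2 differences of 0.27 to 1.09 in size and a median of 0.43, and 2 genes, Gpc5 and Ntf3, passed a size of 1. Rem2 KO and Control libraries did not overlap in either KCl state for 71 of the 114 lower genes and 29 of the 50 higher genes, where 441 (3.46%) and 199 (1.56%) of all tested genes had that pattern. An exact sign test over 4 pairs cannot go below p = 0.125, so the calls rest on the size of the differences relative to their spread. The 4 pairs came from 2 replicate numbers and were counted as independent, which was not tested. Without a pair term no gene passed, while 308 genes had an unadjusted limma p under 0.05, against 1679 with it. No gene passed with the filter on low values dropped, and 3 higher and 18 lower genes passed when zeros were allowed.

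**Figure D1:**
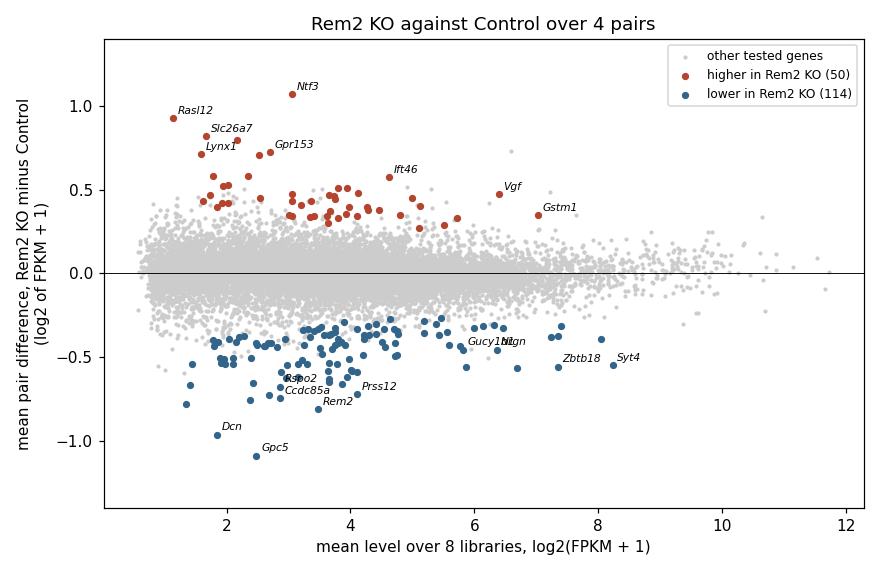
Mean difference between Rem2 KO and Control over the 4 pairs (log2 of FPKM + 1, vertical) against the mean level over 8 libraries (log2 of FPKM + 1, horizontal), with 1 point per tested gene. The 50 genes higher in Rem2 KO are red and the 114 lower genes blue, other genes are grey, and Lars2, Rmrp and Rpph1, which did not pass, lie above the axis range.

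Gpc5 and Dcn, which both encode proteoglycans, had the largest falls, and Rspo2 fell with them. Gpc5 (chromosome 14, 115092201 to 116525192, mm10), which encodes the cell-surface heparan sulfate proteoglycan glypican-5, stood at 1.73 and 3.09 FPKM in Rem2 KO and 2.07 and 3.43 FPKM in KCl-treated Rem2 KO, against 5.28 and 8.12 FPKM in Control without KCl and 5.16 and 7.81 FPKM in KCl-treated Control. Every Rem2 KO library lay below every Control library, at 0.327 to 0.439 of its partner. The mean log2 difference was -1.09 (SE 0.07, limma adjusted p = 0.000255). Rspo2 (chromosome 15, 43020788 to 43171594), a secreted R-spondin that amplifies Wnt signalling, had 5.13 and 4.92 FPKM in Rem2 KO and 3.91 and 4.45 FPKM in KCl-treated Rem2 KO, against 8.74 and 7.83 FPKM in Control without KCl and 6.93 and 8.28 FPKM in KCl-treated Control. Here too no libraries overlapped (log2 difference -0.68, SE 0.07, limma adjusted p = 0.0019). Of the 11 tested glypicans, R-spondins and their receptors these 2 fell and none rose, and the list median was -0.02. Of all tested genes 0.895% fell and 0.393% rose, so in lists of this size a count of 0, here and below, is near the background and shows nothing about a list. Gpc4 (0.23, limma adjusted p = 0.155) and the receptor Lgr4 (-0.18, limma adjusted p = 0.292) did not pass.

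Further genes with small p among the falls are described in groups by what they encode, a grouping made for description only. Prss12 (chromosome 3, 123446913 to 123506602) encodes neurotrypsin, a protease that cleaves agrin. It stood at 9.74 and 19.4 FPKM in Rem2 KO and 7.36 and 11.6 FPKM in KCl-treated Rem2 KO, against 17.8 and 30.7 FPKM in Control without KCl and 11.9 and 21.3 FPKM in KCl-treated Control (log2 difference -0.72, SE 0.06, limma adjusted p = 0.00172). Number 2 libraries were higher than number 1 in every group, and within each number and state Rem2 KO was lower. The same sign in every pair was a condition for naming genes by p or size. Npnt, an integrin ligand of the matrix, had 2.22 and 5.74 FPKM in Rem2 KO and 2.34 and 5.2 FPKM in KCl-treated Rem2 KO, against 5.11 and 9.61 FPKM in Control without KCl and 4.24 and 9.0 FPKM in KCl-treated Control (log2 difference -0.73, limma adjusted p = 0.0019). Edil3, another integrin-binding secreted protein (-0.54), Lpl, lipoprotein lipase (-0.62), Tafa1, a secreted chemokine-like protein (-0.66), and B3galt2, a glycosyltransferase of the Golgi (-0.62), fell with limma adjusted p from 0.00214 to 0.00403. Dcn, which encodes the fibroblast proteoglycan decorin, had the second largest fall (-0.96, SE 0.11, limma adjusted p = 0.00345), at 1.15 to 1.73 FPKM in Rem2 KO libraries and 2.70 to 4.84 FPKM in Control libraries.

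Some falls were in genes of neuronal adhesion molecules. Pcdh7 (chromosome 5, 57716145 to 58133236), a protocadherin, had 8.83 and 7.29 FPKM in Rem2 KO and 9.05 and 10.1 FPKM in KCl-treated Rem2 KO, against 13.0 and 10.8 FPKM in Control and 16.8 in both Control libraries with KCl. No libraries overlapped (log2 difference -0.63, SE 0.07, limma adjusted p = 0.00288). Pcdh17 (-0.51) and Pcdh19 (-0.48) fell too, with limma adjusted p of 0.0123 and 0.00796. With Pcdh7 they are 3 of the 12 non-clustered protocadherins tested, and 0.895% of all tested genes fell (family median -0.16). This family and the next 2 were picked after their values were seen. Of 11 contactins and IgLON proteins, which are adhesion proteins of axons and synapses, Cntn3 (-0.54) and Opcml (-0.34) fell, beside 0.895% of all tested genes, and 9 were lower in all 4 pairs, beside 11.7% of all tested genes (median -0.19). Of 15 leucine-rich repeat proteins of the Lingo, Lrrc4, Lrrtm and Lrfn families, Lingo2 (-0.50), Lrrc4c (-0.44), Lrrtm4 (-0.41) and Lrfn5 (-0.33) fell (median -0.05), beside 0.895% of all tested genes. In all 4 pairs 8 of the 15 were lower and 1 higher, beside 11.7% and 9.12% of all tested genes.

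The list of synaptogenic adhesion and secreted molecules had 83 tested members. Lower in Rem2 KO were 3 of them, Cadm2 (-0.48), Lrrc4c and Lrrtm4, and higher were Ntf3 (1.07) and Ntng2 (0.35), while 78 did not pass. Past the test, 0.895% of all tested genes were lower and 0.393% higher. In all 4 pairs 26 members were lower and 6 higher, beside 11.7% and 9.12% of all tested genes. The list median was -0.05, and 0.0017 over all tested genes. Cadm2, a synaptic adhesion molecule, had 16.2 and 11.8 FPKM in Rem2 KO and 16.2 and 13.5 FPKM in KCl-treated Rem2 KO, against 19.9 and 22.2 FPKM in Control without KCl and 21.0 and 18.8 FPKM in KCl-treated Control (limma adjusted p = 0.0273). All 4 Rem2 KO libraries lay below all 4 Control libraries. Of 43 axon guidance genes, Sema7a (-0.41), Unc5c (-0.38), Efna5 (-0.37) and Robo2 (-0.37) fell and none rose (median -0.06), beside 0.895% and 0.393% of all tested genes. The fallen genes encode a semaphorin, a netrin receptor, an ephrin and a Slit receptor.

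**Figure D2:**
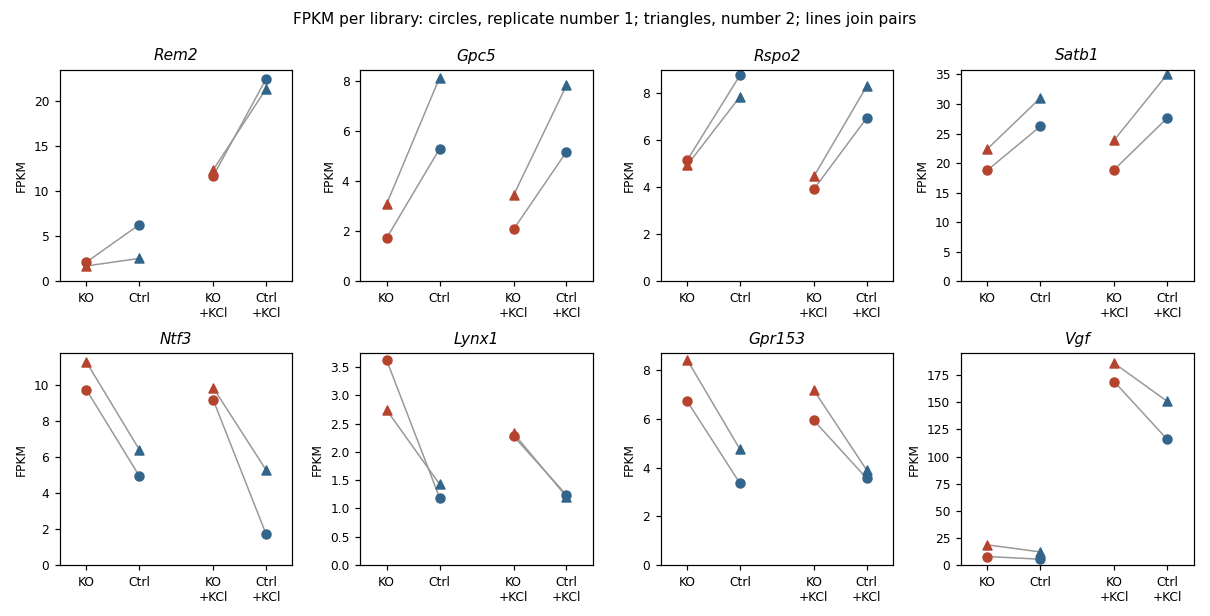
FPKM in each library for 4 genes lower in Rem2 KO (upper panels) and 4 genes higher (lower panels), with Rem2 KO in red left of Control in blue, without and with KCl. Circles are replicate number 1, triangles number 2, and lines join pairs. Every line climbs toward Control for Rem2, Gpc5, Rspo2 and Satb1 and drops toward Control for Ntf3, Lynx1, Gpr153 and Vgf. Apart from Rem2, these genes were chosen among those moving the same way in all 4 pairs.

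Transcription factors of cortical neurons included 5 falls and 1 rise among 46 tested, beside 0.895% and 0.393% of all tested genes, and 4 of the falls are described. Satb1 (chromosome 17, 51736187 to 51833290), a chromatin organiser that acts in cortical interneurons and projection neurons, stood at 18.8 and 22.4 FPKM in Rem2 KO and 18.9 and 23.9 FPKM in KCl-treated Rem2 KO, against 26.2 and 31.0 FPKM in Control without KCl and 27.6 and 35 FPKM in KCl-treated Control. The 4 pair differences lay close together, and no libraries overlapped (log2 difference -0.49, SE 0.05, limma adjusted p = 0.00232). Foxp1, a forkhead repressor, had 12.2 and 11.3 FPKM in Rem2 KO and 11.4 and 10.7 FPKM in KCl-treated Rem2 KO, against 17.2 and 15.7 FPKM in Control without KCl and 15.1 and 14.1 FPKM in KCl-treated Control, again without overlap (-0.41, limma adjusted p = 0.0102). The zinc finger repressor Zbtb18 (-0.56) and the activity-regulated factor Mef2c (-0.37) fell with limma adjusted p of 0.0173 and 0.0316, and Tshz2 rose (0.43, limma adjusted p = 0.029). In all 4 pairs 18 of the 46 were lower and 4 higher, beside 11.7% and 9.12% of all tested genes, and the list median was -0.08.

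In calcium signalling, the known setting of Rem2, 1 of 15 channel subunits and 3 of 32 calcium and calmodulin genes passed, beside 1.29% of all tested genes. Of the 15 voltage-gated calcium channel subunits, the beta subunit Cacnb4 fell (log2 difference -0.32, SE 0.07, limma adjusted p = 0.0494) and none rose. It had 9.42 and 8.29 FPKM in Rem2 KO and 9.73 and 9.71 FPKM in KCl-treated Rem2 KO, against 11.5 and 11.7 FPKM in Control without KCl and 12.9 and 11.3 FPKM in KCl-treated Control. Cacnb4 was thus lower in every Rem2 KO library, but at the edge of the threshold. The auxiliary subunit Cacna2d1 was at 19.5 to 27.6 FPKM in Rem2 KO and 27.3 to 32.3 FPKM in Control and did not pass (-0.36, limma adjusted p = 0.0656). Of 32 calcium and calmodulin genes, Nrgn, the calmodulin-binding postsynaptic protein neurogranin (-0.46), and Adcy1, a calmodulin-stimulated adenylyl cyclase (-0.35), fell, and Camkk1, a kinase that activates CaM kinases (0.34), rose. Nrgn stood at 61.9 to 74.4 FPKM in Rem2 KO and 89.4 to 101 FPKM in Control, with no overlap.

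Of 33 glutamate receptor genes, Cnih3, an AMPA receptor auxiliary subunit (-0.43), and Grm5, a metabotropic receptor (-0.33), fell, none rose, and the median was -0.10. Of 35 presynaptic genes, the vesicle calcium sensor Syt1 (-0.33) and the related synaptotagmin Syt4 (-0.55) fell. Slc17a6, the vesicular glutamate transporter VGLUT2, rose (0.39, limma adjusted p = 0.037). Beside the counts in both lists, 0.895% of all tested genes fell and 0.393% rose. Syt4 had 160 and 120 FPKM in Rem2 KO and 355 and 360 FPKM in KCl-treated Rem2 KO, against 230 and 207 FPKM in Control without KCl and 465 and 511 FPKM in KCl-treated Control (limma adjusted p = 0.00796). No libraries overlapped within a state, although KCl raised Syt4 by 1.26 averaged over the genotypes. No postsynaptic density scaffold (25 tested) and no inhibitory synapse gene (20) passed, which at 1.29% of all tested genes is near the background. Closest in these lists were Dlg2 (-0.20, limma adjusted p = 0.104) and Gabrb2, a GABA-A receptor subunit (-0.32, limma adjusted p = 0.127).

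Gucy1b1, the beta subunit of soluble guanylate cyclase, the nitric oxide receptor, stood at 45.8 and 46.4 FPKM in Rem2 KO and 46.9 and 46.8 FPKM in KCl-treated Rem2 KO, against 59.8 and 62.3 FPKM in Control without KCl and 66.3 and 68.3 FPKM in KCl-treated Control. Replicates lay within a few FPKM of each other, and no libraries overlapped (log2 difference -0.46, SE 0.05, limma adjusted p = 0.00364). Mc4r, the melanocortin 4 receptor, had the largest fall among receptor genes named here (-0.76, limma adjusted p = 0.0177), with 2.13 to 3.43 FPKM in Rem2 KO and 4.37 to 8.09 FPKM in Control. Ddn, which encodes the postsynaptic protein dendrin (-0.66), the Rab GTPase regulator gene Tbc1d5 (-0.62), Slf1 (-0.65) and Ccdc85a (-0.74) fell with limma adjusted p from 0.0019 to 0.00364. Gpr85, an orphan receptor of neurons (-0.56), Sstr1, a somatostatin receptor (-0.44), and Cnr1, the CB1 cannabinoid receptor (-0.31), fell with limma adjusted p of 0.0136, 0.0157 and 0.0494 and were named after their values were seen.

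The rises were led by Ntf3 (chromosome 6, 126101412 to 126166772), which encodes the neurotrophin NT-3. It stood at 9.76 and 11.3 FPKM in Rem2 KO and 9.19 and 9.87 FPKM in KCl-treated Rem2 KO, against 4.96 and 6.43 FPKM in Control without KCl and 1.72 and 5.29 FPKM in KCl-treated Control. All Rem2 KO libraries lay above all Control libraries, and Control with KCl number 1 was far below the rest (log2 difference 1.07, SE 0.16, limma adjusted p = 0.0124). Gpr153, an orphan receptor gene (chromosome 4, 152274106 to 152285342), had 6.74 and 8.44 FPKM in Rem2 KO and 5.94 and 7.18 FPKM in KCl-treated Rem2 KO, against 3.36 and 4.76 FPKM in Control without KCl and 3.56 and 3.9 FPKM in KCl-treated Control (0.72, SE 0.07, limma adjusted p = 0.0019). The groups did not overlap. Lynx1, a membrane-anchored modulator of nicotinic acetylcholine receptors, had 3.62 and 2.74 FPKM in Rem2 KO and 2.28 and 2.33 FPKM in KCl-treated Rem2 KO, against 1.19 and 1.43 FPKM in Control without KCl and 1.24 and 1.21 FPKM in KCl-treated Control (0.71, limma adjusted p = 0.00796). Slc26a7, an anion transporter gene, rose in the same low range (0.82, SE 0.09, limma adjusted p = 0.00288).

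The other rises named by p or size were of mixed function. Vgf, a secreted neuronal protein strongly raised by activity, had 7.84 and 18.6 FPKM in Rem2 KO and 169 and 186 FPKM in KCl-treated Rem2 KO, against 5.38 and 12.1 FPKM in Control without KCl and 116 and 151 FPKM in KCl-treated Control. Without KCl the replicates overlapped between genotypes, and in every pair Rem2 KO was higher (0.47, SE 0.06, limma adjusted p = 0.00567), which was a condition for naming genes by p or size. Rgs16, a brake on G protein signalling, rose by 0.44 (limma adjusted p = 0.0105), while Rgs6 and Rgs7 fell (-0.33 and -0.32). Ift46, a component of cilia transport, had 30.4 and 40.1 FPKM in Rem2 KO and 19.1 and 24.5 FPKM in KCl-treated Rem2 KO, against 20 and 24.4 FPKM in Control without KCl and 13.3 and 16.6 FPKM in KCl-treated Control (0.57, limma adjusted p = 0.0019). Its Rem2 KO libraries lay above the Control libraries of the same state. Igsf21, a synaptic adhesion protein (0.45), Lgi1, a secreted synaptic protein (0.43), Masp1, a complement protease (0.51), Mfap2, a microfibril protein (0.40), Chn2, a Rac regulator (0.40), Id1, an inhibitor of differentiation factors (0.38), and Prrx2, a homeobox gene (0.52), rose with limma adjusted p from 0.0114 to 0.0177. The histone genes H4c8 (0.71) and H2bc18 (0.53) rose as well, but histone genes have near-identical copies among which reads may be split, so their values are uncertain.

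**Figure D3:**
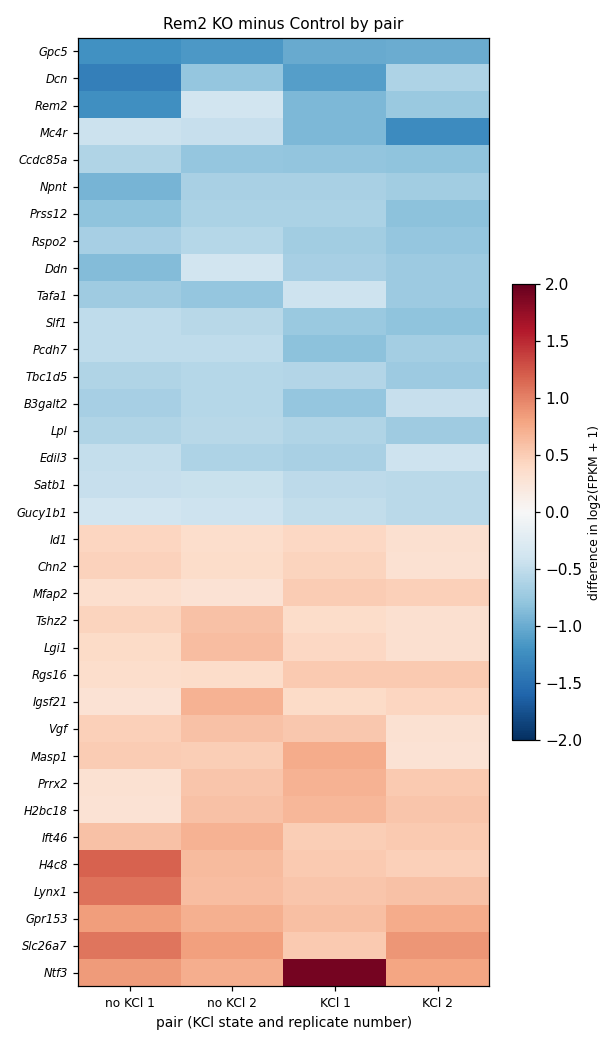
Difference Rem2 KO minus Control in log2(FPKM + 1) for each of the 4 pairs (columns) in 35 genes with the smallest p or largest change in each direction (rows), among genes with a mean of at least 2 FPKM and without predicted genes, blue for lower and red for higher. Only genes moving the same way in all 4 pairs could be chosen, so all 18 lower genes are blue and all 17 higher genes red in every pair. The strongest single value is the 1.91 of Ntf3 in KCl pair 1.

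Of activity-regulated genes, none of 29 immediate-early genes and 2 of 28 late effectors passed, beside 1.29% of all tested genes. The median of the immediate-early list was -0.01, but the pairs differed, with -0.25 and 0.08 in pairs 1 and 2 without KCl and 0.01 and 0.10 with KCl. The smallest p in that list belonged to Myc (0.23, limma adjusted p = 0.174) and Nr4a2 (-0.22, limma adjusted p = 0.227). Of the late effectors Vgf rose and Inhba, a subunit of activin (-0.43, limma adjusted p = 0.038), fell. The RGS gene Rgs4, at 14.7 to 22.9 FPKM in Rem2 KO and 13.5 to 19.4 FPKM in Control without KCl, with 87.7 and 108 FPKM in KCl-treated Rem2 KO against 58.7 and 80.6 FPKM in KCl-treated Control, did not pass (0.33, limma adjusted p = 0.0642).

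Whether the genotype differences depended on KCl was tested as an interaction. No gene passed in limma (0% of tested genes), and 471 genes, 15 of them among the 164, had an unadjusted p under 0.05. With limma fitted to 2 pairs at a time, so that the compared sets share no library, 132 of the 160 genes called without KCl (82.5%) had the same sign with KCl, and 312 of the 362 called with KCl (86.2%) had the same sign without it, where 61.0% of all genes agreed in sign. Called in both states were 57 genes, 35.6% of the first set and 15.7% of the second. The pairs without and with KCl had the same replicate numbers, and whether same-numbered pairs are independent was not tested. Between replicate numbers, 64 of the 69 genes called in number 1 (92.8%) kept their sign in number 2, and 166 of the 196 called in number 2 (84.7%) kept it in number 1, with 53.8% for all genes. Across all genes the pair differences correlated at 0.13 to 0.39, lowest for the pair numbered 1 without KCl. Genes lower in Rem2 KO were higher with KCl in 42 of 114 cases (36.8%) and lower with KCl in 36 (31.6%), where KCl raised 21.2% and lowered 44.5% of all tested genes. Genes higher in Rem2 KO were raised by KCl in 12 of 50 cases (24%) and lowered in 24 (48%).

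Markers of other cell types were measured beside these changes. Of 17 excitatory neuron markers 2 fell, among them Nrgn, and Slc17a6 rose, beside 0.895% and 0.393% of all tested genes. In all 4 pairs 10 were lower and 3 higher, beside 11.7% and 9.12% of all tested genes. Their median was -0.14, at -0.11 to -0.15 in each pair. Astrocyte and radial glia markers (18, median 0.12), markers of dividing cells (18, median 0.19) and oligodendrocyte lineage markers (10, median 0.20) had no gene past the test, but 7, 9 and 4 of them were higher in all 4 pairs, beside 9.12% of all tested genes. Lower in all 4 pairs were 0, 0 and 1 of them, beside 11.7% of all tested genes. The pair medians of these lists were above 0 in every pair, and those of dividing cells were 0.07 and 0.12 in number 1 and 0.33 and 0.20 in number 2. Sums, here and below, run over every listed marker with a value, tested or not. Summed astrocyte and radial glia markers were 2240 to 3110 FPKM and 2350 to 3170 FPKM in Rem2 KO without and with KCl, against 2090 to 2620 FPKM and 1970 to 2870 FPKM in Control. The summed markers of dividing cells were 249 to 455 FPKM in Rem2 KO and 292 to 409 FPKM in Rem2 KO with KCl, against 248 to 375 FPKM in Control and 268 to 351 FPKM in Control with KCl. Summed excitatory markers were 560 to 571 and 737 to 897 FPKM in Rem2 KO without and with KCl, against 643 to 650 and 936 to 938 FPKM in Control. No cell type list had a marker at 0 in every library. The part of such cells in the changes was not tested, and in bulk RNA fewer cells of a type and less RNA per cell cannot be told apart.

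The lists of microglia, of endothelial and mural cells and of meningeal fibroblasts each held 1 gene past the test, beside 1.29% of all tested genes. Microglial C1qc (-0.54, limma adjusted p = 0.0288) fell among 11 tested markers with a median of -0.19. All 15 listed microglial markers summed to 36.9 to 78.7 FPKM in Rem2 KO and 38.0 to 70.0 FPKM in Rem2 KO with KCl. Their sums were 45.5 to 83.7 FPKM in Control and 45.9 to 89.1 FPKM in Control with KCl. The microglial markers P2ry12, Itgam, Tmem119 and Ptprc stayed under 1 FPKM in every library. Endothelial Cldn5 (-0.45, limma adjusted p = 0.0105) fell among 9 tested endothelial and mural markers. All 15 listed summed to 38.0 to 188 FPKM and 43.8 to 173 FPKM in Rem2 KO without and with KCl, against 48.5 to 182 FPKM and 51.1 to 146 FPKM in Control. The sum mixes 2 cell types, and mural Acta2 holds a large part of it in number 2 libraries, at 49.8 to 79 FPKM. In number 1 libraries Acta2 was at 3.67 to 6.37 FPKM. Endothelial Cdh5 (-0.31, limma adjusted p = 0.095) and Pecam1 (-0.29, limma adjusted p = 0.149) were lower in all 4 pairs without passing, and Acta2 (0.31, limma adjusted p = 0.0652) was higher in all 4 pairs without passing. Dcn fell among 10 tested markers of meningeal fibroblasts. The collagen gene Col3a1 was lower in all 4 pairs, by -0.49, -0.18, -0.23 and -0.14, and did not pass (limma adjusted p = 0.207), and Lum and Col6a3, which were not tested, stayed under 1 FPKM. The fibroblast list summed to 116 to 317 FPKM and 132 to 310 FPKM in Rem2 KO without and with KCl, against 128 to 278 FPKM and 112 to 266 FPKM in Control. Much of that sum was Igfbp2, at 72.7 to 247 FPKM in Rem2 KO libraries and 65.8 to 216 FPKM in Control libraries (0.21, limma adjusted p = 0.28), and the part of such cells in the fall of Dcn was not tested. The medians of these 2 lists were -0.05 and -0.04. No interneuron marker of 23 passed (median 0.05). Calb2 (-0.34, limma adjusted p = 0.0696) and Calb1 (-0.37, limma adjusted p = 0.159), both calcium-binding proteins, had the smallest p. Dlx1 (0.20, limma adjusted p = 0.185) and Dlx2 (0.27, limma adjusted p = 0.212) came next, in the other direction. In all 4 pairs 3 interneuron markers were higher and 2 lower, beside 9.12% and 11.7% of all tested genes. Of 24 p53 targets Phlda3 rose (0.27, limma adjusted p = 0.0431), 8 were higher in all 4 pairs, beside 9.12% of all tested genes, and the median was 0.13. No interferon-stimulated (14), stress response (23), cholesterol synthesis (20), glycolysis (23) or ribosomal protein gene (28) passed, beside 1.29% of all tested genes. In the ribosomal list the median was -0.12 in pair 1 and 0.27 in pair 2 without KCl, so the pairs disagreed in sign, and in the cholesterol list it was 0.30 in KCl pair 1 and -0.12 to -0.32 in the other 3 pairs.

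**Figure D4:**
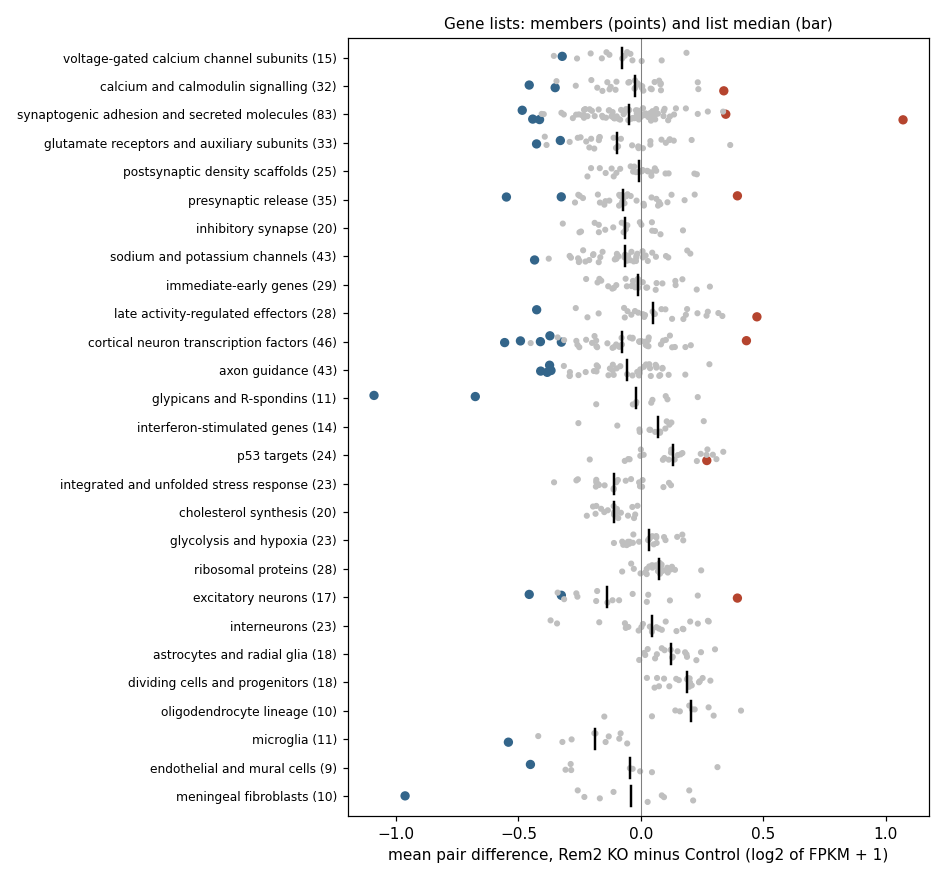
Difference Rem2 KO minus Control (log2 of FPKM + 1, mean of 4 pairs) for every tested member of each gene list, with the number tested in brackets and the list median as a black bar. Red points are higher and blue points lower past an adjusted p of 0.05. The medians run from -0.19 for microglia to 0.20 for the oligodendrocyte lineage.

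Genes lower in Rem2 KO spanned more of the genome than the rest. Their median genomic span was 110 kb, against 15.8 kb for the higher genes and 24.5 kb for all tested genes, and 51.8% of them reached 100 kb, against 14% of the higher genes and 15.1% of all. Gpc5, Tafa1, Edil3, Tbc1d5 and Pcdh7 each span more than 300 kb. Of 479 tested genes over 300 kb, 31 fell (6.47%) and 2 rose (0.418%), while of 3138 genes under 10 kb, 18 fell (0.574%) and 19 rose (0.605%). The median difference of genes over 300 kb was -0.05, and -0.04 and -0.02 in pairs 1 and 2 without KCl and -0.09 and -0.05 with KCl. Relative to genes under 10 kb it was lower in 3 pairs but not in pair 1 without KCl, where the median of the short genes was -0.12. Long genes also had lower levels, with a median of 7.18 FPKM over 300 kb and 14.8 FPKM under 10 kb, and the part of level in this was not tested. Span was examined after the values were seen.

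**Figure D5:**
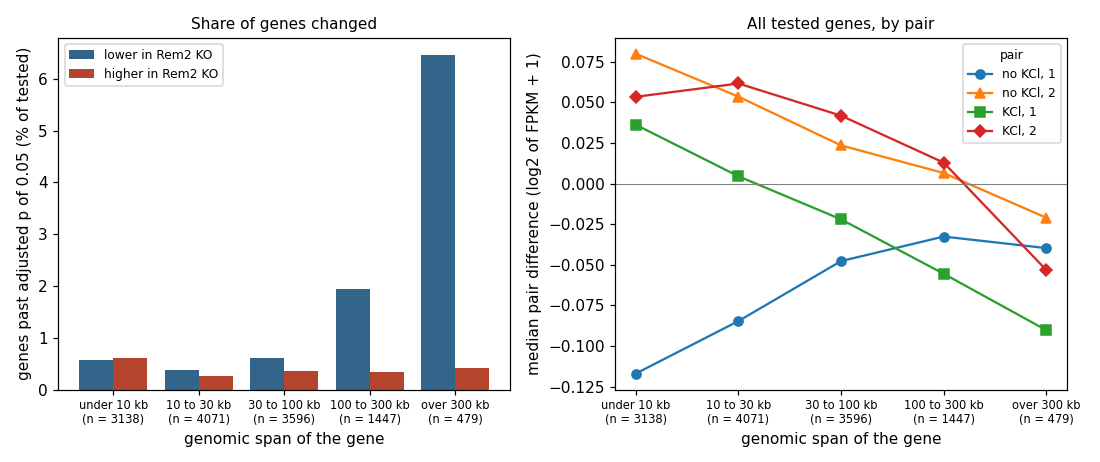
Left, share of tested genes that passed an adjusted p of 0.05 (% of tested), lower in blue and higher in red, by genomic span. Right, median difference Rem2 KO minus Control (log2 of FPKM + 1) of all tested genes in each span class, with 1 line per pair. The share of lower genes reaches 6.47% over 300 kb, and the line of pair 1 without KCl runs opposite to the other 3.

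Of the 444 tested genes on chromosome 14, where Rem2 lies, 4 passed (0.901%), Rem2 itself among them, beside 1.29% of all tested genes. None of the 89 other genes within 5 Mb of Rem2 passed, which is near that background and shows nothing about this region. Promoters, here the 250 bases before and 50 after the annotated start in RefSeq on GRCm38.p6, are shown for Rem2 and for the genes with the largest fall and the largest rise. Capitals mark the GC box GGGCGG, read on either strand, which occurs once in each.
Rem2 promoter (chr14:54475850-54476149, + strand): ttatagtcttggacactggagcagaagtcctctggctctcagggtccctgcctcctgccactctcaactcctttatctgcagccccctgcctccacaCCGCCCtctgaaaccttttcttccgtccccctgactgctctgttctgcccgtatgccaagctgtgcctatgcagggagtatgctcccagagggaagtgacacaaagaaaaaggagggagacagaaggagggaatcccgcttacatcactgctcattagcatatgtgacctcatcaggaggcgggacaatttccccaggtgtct
Gpc5 promoter (chr14:115091965-115092264, + strand): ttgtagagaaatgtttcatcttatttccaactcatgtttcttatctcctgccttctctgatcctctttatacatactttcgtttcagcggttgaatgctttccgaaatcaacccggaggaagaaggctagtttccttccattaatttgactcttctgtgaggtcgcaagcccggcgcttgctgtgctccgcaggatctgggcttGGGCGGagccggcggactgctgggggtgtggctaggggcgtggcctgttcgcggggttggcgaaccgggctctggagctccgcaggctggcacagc
Ntf3 promoter (chr6:126166695-126166994, - strand): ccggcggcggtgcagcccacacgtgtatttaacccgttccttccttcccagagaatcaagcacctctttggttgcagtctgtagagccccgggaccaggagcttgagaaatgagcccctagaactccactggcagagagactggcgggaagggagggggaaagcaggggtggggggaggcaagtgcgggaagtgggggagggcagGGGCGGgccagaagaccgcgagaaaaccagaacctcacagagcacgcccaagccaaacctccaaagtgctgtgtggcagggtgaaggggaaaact
A promoter was found for 89 of the 114 lower genes, 40 of the 50 higher genes and 10148 of all tested genes, and Ntf3 had 2, of which the first listed is shown. The GC box was in 53.9% of lower, 77.5% of higher and 66.4% of all promoters. The full cAMP response element TGACGTCA, known to bind CREB, was in none of the lower, 3 of the higher (7.5%, H4c8, Fam71e1 and 1810044D09Rik) and 3.46% of all promoters. Its first 5 letters TGACG alone, which the full element contains, were in 23.6% of lower, 22.5% of higher and 32.6% of all promoters. The AP-1 site TGANTCA was in 8.99% of lower, 0% of higher and 4.22% of all promoters, and the E-box CANNTG in 70.8%, 72.5% and 61.9%. Both strands were searched. The median GC content was 59.3% in lower, 59.7% in higher and 61.3% in all promoters. A match is a string of letters and not a bound site.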

How the data were processed

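RNA of 8 libraries of cultured cortical neurons was sequenced. Per the labels, libraries were made from total RNA with an Illumina TruSeq kit. Per the submitters' processing notes, TopHat, Cufflinks and mm10 were used, with versions not given in the sources used here. The authors deposited FPKM values, per the file headers, with 1 entry per RefSeq transcript and library. The table held 34915 entries, of which 94 lacked a value in every number 2 library. A gene symbol was found for 34205 of 34353 accessions, and the 148 without one held at most 0.261% of the FPKM of a library. Transcripts were summed per gene, and 306 genes were left out because an accession was repeated or a value missing, which left 23946. Of these, 13143 reached 1 FPKM in 2 libraries and 12736 were also above 0 in all 8. Positions are those of RefSeq on GRCm38.p6.

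Genes were tested on log2(FPKM + 1), a scale that understates changes of low genes, without rescaling. limma 3.58.1 in R 4.3.3 fitted a term for each of the 4 pairs and the genotype (3 residual degrees of freedom), with a variance trend. The 4 pairs came from 2 replicate numbers, and the fit counted the pairs with and without KCl of a number as independent. Whether they are was not tested. The Benjamini-Hochberg adjustment ran over the 12736 genes, with calls at 0.05. The interaction with KCl and the KCl effect were fitted with 4 group means and the replicate number. Tables were handled in Python 3.11.15 with pandas 2.3.3. Same-numbered libraries deviated together from their group means (r = 0.844 to 0.911 over the 6 pairs of groups, equal for both numbers with 2 replicates), so the numbers were taken to pair the libraries. With 2 replicates per group and no read counts, no interval of counting error can be given. The fit was checked on simulated data.

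Named genes were the RGK family, then, among genes moving the same way in all 4 pairs with a mean of at least 2 FPKM and no predicted or small RNA genes, the 15 with the smallest p and the 10 with the largest change among those past 0.32 on the log2 scale in every pair, in each direction, and up to 4 members per gene list by smallest p. Other genes were named after their values were seen. Some genes that the rule names are not reported here. The question, the members, the lists and the rule were chosen with earlier results of these data known. Alternatives were other pseudocounts, filters, scalings, fits and subsets of pairs, and those with a repeated accession kept or with robust empirical Bayes beside another filter or transcripts were added after the data were seen. Whether counting used strand is not given in the sources used here, so overlapping and antisense genes cannot be told apart.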

Additional observations from a re-analysis of the deposited data

Results flagged for a closer look

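Slc16a1, which encodes the lactate transporter MCT1, was the 1 gene among those named whose genotype difference pointed to opposite sides in the KCl states in every library pair. Rem2 KO minus Control was 0.0062 and 0.0003 in the pairs without KCl and -0.37 and -0.08 in the pairs with KCl. The difference with KCl minus that without was -0.23 on the log2 scale and did not pass the test (limma adjusted p = 0.999). The values without KCl lie next to 0.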

How the results depend on the processing

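All 164 genes kept their sign in every gene-level alternative that tested them. For subsets of pairs this was fixed in advance, since each of the 164 moved the same way in all 4 pairs. Fits of the same values with other error terms also keep the mean difference. How many genes passed depended on the fit and the filter. Set beside 50 higher and 114 lower genes, the fit without the replicate block gave 0 and 0 (308 genes at an unadjusted p under 0.05; Rem2 adjusted p = 1). The replicate block with 4 group means gave 30 and 83 (Rem2 0.052). No filter gave 0 and 0 (Rem2 0.285; 2 interaction calls), and 1898 genes at an unadjusted p under 0.05. Allowing zeros gave 3 and 18 (Rem2 0.0834; 9 interaction calls), and testing each transcript gave 0 and 0 (Rem2 0.157), with 1488 transcripts at an unadjusted p under 0.05. In each of these the Rem2 log2 change stayed at -0.81. With robust empirical Bayes, added after the data were seen, allowing zeros gave 33 and 86 (9 interaction calls), no filter 0 and 0 (Rem2 0.186; 4 interaction calls) and transcripts 0 and 0 (Rem2 0.158). The cause was not tested.

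Leaving out 1 pair gave 13 to 93 higher and 32 to 142 lower genes, fewest (13 and 32) without KCl pair 1 and most (93 and 142) without pair 1 without KCl, while leaving out pair 2 gave 30 and 72 without KCl and 28 and 55 with KCl. The count of genes past 0.32 in every pair left was 75 to 100 against 49 with 4 pairs, fewer pairs having to pass. Number 1 alone gave 24 and 45 (201 past 0.32), number 2 alone 98 and 98 (263), no KCl alone 69 and 91 (180) and KCl alone 161 and 201 (253). The share of lower genes was 69.5%, 50% in number 2 alone, and 56.9% and 55.5% in no KCl and KCl alone. Pseudocount 0.1 gave 94 genes past 0.32. Without Rem2 KO replicate 1 the interaction called 1 gene. Other scalings, pseudocounts, 5 FPKM in 2 libraries, no variance trend, robust empirical Bayes and repeated accessions kept gave 40 to 55 higher and 84 to 127 lower genes.

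Single genes were followed except those of the cholesterol and ribosomal lists. Some that did not pass changed sign in some subsets, with log2 changes of -0.0012 for Gem under quantile normalization, -0.032 to 0.12 for Gem when 1 pair was left out, -0.0816 for Gem and 0.0033 for Slc16a1 in no KCl alone, and -0.0334 for Pax6 among transcripts (also with robust empirical Bayes). In number 1 alone they were -0.0308 for Gem, -0.0119 for Rrad, -0.0101 for Kdm5d and -0.0014 for Sox10, and in number 2 alone 0.13 for Bst2 and 0.0071 for Chac1.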

Other observations

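Some genes lay outside the filter because a library was listed at 0. Of 407 such genes that reached 1 FPKM in 2 libraries, 12 were listed at 0 in all 4 Rem2 KO libraries, among them the kinesin light chain gene Klc3 and the neuregulin gene Nrg4. In all 4 Control libraries 7 were listed at 0, among them Aebp1, Dnlz and Mea1. An exact 0 in FPKM can be a failed estimate, so no fold change is given.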
